A study of Fukomys damarensis and Heterocephalus glaber and Mus musculus with 160 samples.

Results

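Acetylation of histone H3 at lysine 27 (H3K27ac) was compared between the liver and the heart of the naked mole-rat (Heterocephalus glaber), a long-lived subterranean rodent, by chromatin immunoprecipitation followed by sequencing (ChIP-seq). The members were chosen by their titles, which name the species, the tissue and the antibody: 8 peak lists, 5 from liver and 3 from heart, of 160 samples in the series, of which 116 had a peak list. The liver libraries came from animals NMR30, NMR31, NMR32, NMR34 and NMR35, and the heart libraries from NMR31, NMR32 and NMR35, so that 3 animals gave both tissues. All 5 animals were labelled as wild-type adult males, aged 13 months (NMR30), 14 months (NMR31), 15 months (NMR35) and 17 months (NMR32 and NMR34). Whole organs were used. The liver had been flushed with buffered saline and clots had been taken out of the heart ventricles, so each library averages over all cell types of its tissue. In such bulk tissue, a mark carried by fewer cells and a weaker mark in every cell cannot be told apart.

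H3K27ac is laid down by the acetyltransferases p300 and CBP on nucleosomes beside active promoters and active enhancers. Promoters are the starts of genes, and many are active in most tissues. Enhancers lie away from them, raise the activity of a gene in particular cell types, and make up much of what differs between the H3K27ac maps of 2 tissues. A further pair of histone marks helps to tell these elements apart: H3K4me3 is concentrated at active promoters and H3K4me1 at enhancers, active or poised. Hepatocytes, the main cells of the liver, depend on factors such as HNF4A, FOXA1, CEBPA and RXRA, which bind both kinds of element.

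Each deposited list held 87316 to 131043 peaks (liver 105890 ± 16170, SD, n = 5; heart 103285 ± 12174, SD, n = 3), and the read depth behind a list is unknown. A peak's fold is the authors' enrichment over the matching input library, and since each list has its own input, folds were compared between lists only through their rank or percentile within the list. The library names begin with do or vl, a prefix whose meaning the labels do not give: vl for the livers of NMR30 and NMR31 and the hearts of NMR31 and NMR32, and do for the other 4. Genes near the regions and the DNA sequence of the regions were not analysed here, so positions are given on the scaffolds of HetGla_1.0, the build named in the lists. The tissue labels were therefore checked against liver factor binding and not against marker genes: the 8 liver factor libraries had a peak at 9.19% ± 5.81 (SD) of regions marked only in liver and at 1.56% ± 0.83 of those marked only in heart.

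Most of the acetylated regions belonged to 1 tissue. A region was a stretch covered in at least 2 libraries of a tissue, joined across tissues where such stretches touched, and a library counted as having it when a peak overlapped at least 50% of the shorter of peak and region. Of 148642 regions, 56646 (38.1%) had a peak in at least 2 livers and in no heart, 44294 (29.8%) in at least 2 hearts and in no liver, and 33061 (22.2%) in at least 2 libraries of each tissue. The other 14641 regions, with a peak in only 1 library of a tissue, were left out of these classes. A liver-only region needed 2 of 5 livers and a heart-only region 2 of 3 hearts, so the 2 counts rest on unlike rules. Of the liver-only regions, 21100 had a peak in only 2 livers. With every library of a tissue required, the order turned, with 16782 liver-only and 18566 heart-only regions. Regions of both tissues were wider, with a median of 975 bases against 325 bases for liver-only and 305 bases for heart-only regions, and they covered 46.4 Mb against 29.9 and 21.2 Mb. Joining stretches of 2 tissues can only widen a region, so these widths were not tested.

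**Figure D1:**
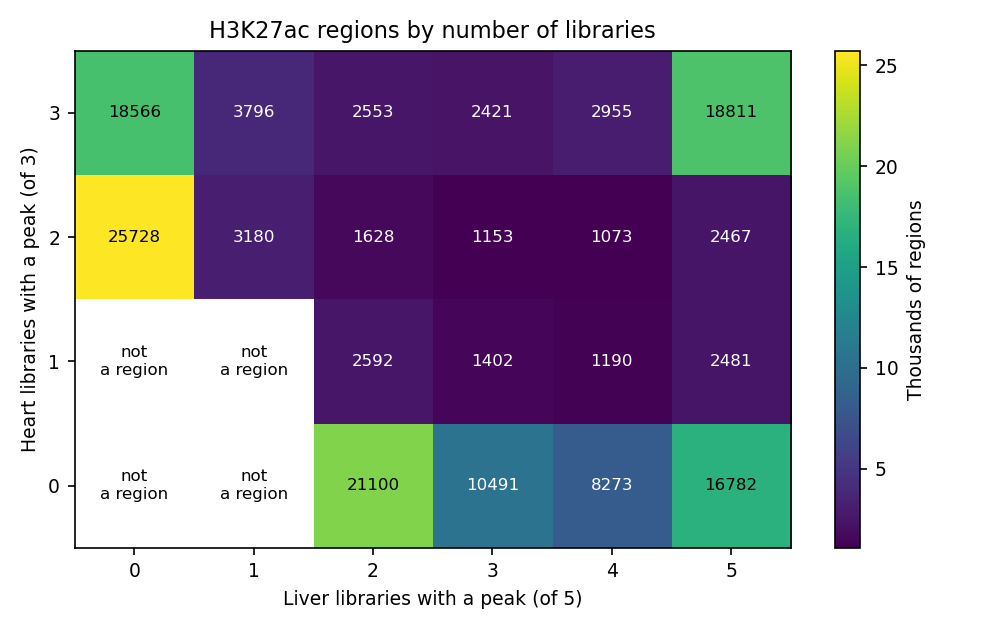
Number of H3K27ac regions by how many of the 5 liver libraries (horizontal axis) and how many of the 3 heart libraries (vertical axis) had a peak there. Counts are high at the corners: 18811 regions had a peak in all 8 libraries, 16782 in all 5 livers and no heart, and 18566 in all 3 hearts and no liver, while 1628 had a peak in 2 livers and 2 hearts.

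Once found in 2 libraries of a tissue, regions that the other tissue shared recurred more completely. Among regions with a peak in at least 2 livers, 29.6% of those found in no heart had a peak in every liver, against 70.3% of the 26740 found in every heart. Among regions with a peak in at least 2 hearts, 41.9% of those found in no liver had a peak in every heart, against 88.4% of the 21278 found in every liver. A region without the other tissue has at least 2 libraries of its own by definition. Without that condition on the other side, 38.3% of the 49102 regions in every heart were in every liver, and 46.4% of the 40541 regions in every liver were in every heart. Within a list, the 18811 regions of all 8 libraries had a median fold percentile of 82.3 to 88.8 in the 5 livers and 85.2 to 88.6 in the 3 hearts. The 16782 regions of every liver and no heart lay lower, at 66.8 to 77.8, and the 18566 regions of every heart and no liver at 60.8 to 63.0. In each of the 8 lists, the regions of its own tissue alone were thus ranked lower than the regions of all 8 libraries. A region's percentile was the highest among its peaks, and the regions of all 8 libraries were wider. Their median was 1326 bases, against 824 for the regions of every liver alone and 568 for those of every heart alone. Under the overlap rule, a small peak inside a wide region also counts as having it. The part of region width in the ranks and in the recurrence was not tested.

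The overlap of covered bases between 2 lists, as a Jaccard index (bases covered in both divided by bases covered in either), was 0.474 to 0.548 over the 10 pairs of livers and 0.511 to 0.520 over the 3 pairs of hearts. Between a liver and a heart it was 0.185 to 0.230 over 15 pairs, so no pair across tissues came near a pair within one. The liver and the heart of 1 animal overlapped by 0.194 (NMR31), 0.213 (NMR32) and 0.230 (NMR35), with a mean of 0.212 against 0.202 for the 12 pairs of different animals. This difference of 0.0105 did not pass an exact permutation test over the 60 ways to give the hearts to the liver animals (two-sided p = 0.0833). It was 0.0179 without the heart of NMR31, 0.00484 without that of NMR35 and 0.00317 among the 3 animals alone.

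Median peak width was 390 (NMR30), 390 (NMR31), 337 (NMR32), 303 (NMR34) and 319 bases (NMR35) in the livers, and 458 (NMR31), 429 (NMR32) and 348 bases (NMR35) in the hearts. The 2 highest values were hearts, but the heart of NMR35 lay within the range of the livers. The means were 348 ± 40.4 (SD, n = 5) and 412 ± 57.0 bases (SD, n = 3), and the difference of -63.9 bases did not pass the exact permutation test over the 56 assignments of libraries to tissues (p = 0.125, adjusted p = 0.208 over 5 measures; two-sided, as are all tests here). Within the do libraries the difference was -28.3 bases and within the vl libraries -53.5 bases (exact permutation within prefixes, p = 0.0833). The narrowest peak of a list had 170, 188, 166, 175 and 169 bases in the livers in the order above, and 226, 226 and 176 bases in the hearts. It was largest in the hearts of NMR31 and NMR32, which had the highest medians. Among the livers the orders differed: NMR34 had the lowest median but a larger narrowest peak than NMR30. With peaks of at least 300 bases alone, the difference was -8.60 bases; without the heart of NMR31 it was -40.7 bases and without that of NMR35 -95.7 bases. The part of this lower limit in the width of the lists was not tested in any other way. Covered bases (log2 difference -0.22, adjusted p = 0.246), the 95th percentile of width (-307 bases, adjusted p = 0.208; -187 without the heart of NMR31) and the share of covered bases in the widest 10% of peaks (-0.506 percentage points, adjusted p = 0.464) did not pass the exact permutation test either.

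Fold was spread more widely in the liver lists. The 99th percentile of fold was 6.43 (NMR30), 6.62 (NMR31), 9.62 (NMR32), 6.68 (NMR34) and 7.78 times (NMR35) the median fold in the livers, and 4.73 (NMR31), 5.25 (NMR32) and 4.98 times (NMR35) in the hearts. The groups did not overlap. The means of 7.43 ± 1.34 (SD, n = 5) and 4.99 ± 0.262 (SD, n = 3) differed by 2.44, with p = 0.0179 by exact permutation, the smallest that 5 against 3 libraries can give, and an adjusted p of 0.0893 over the 5 measures, which misses the threshold of 0.05. Within the do and the vl libraries the difference was 3.05 and 1.54 (exact permutation p = 0.0833).

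**Figure D2:**
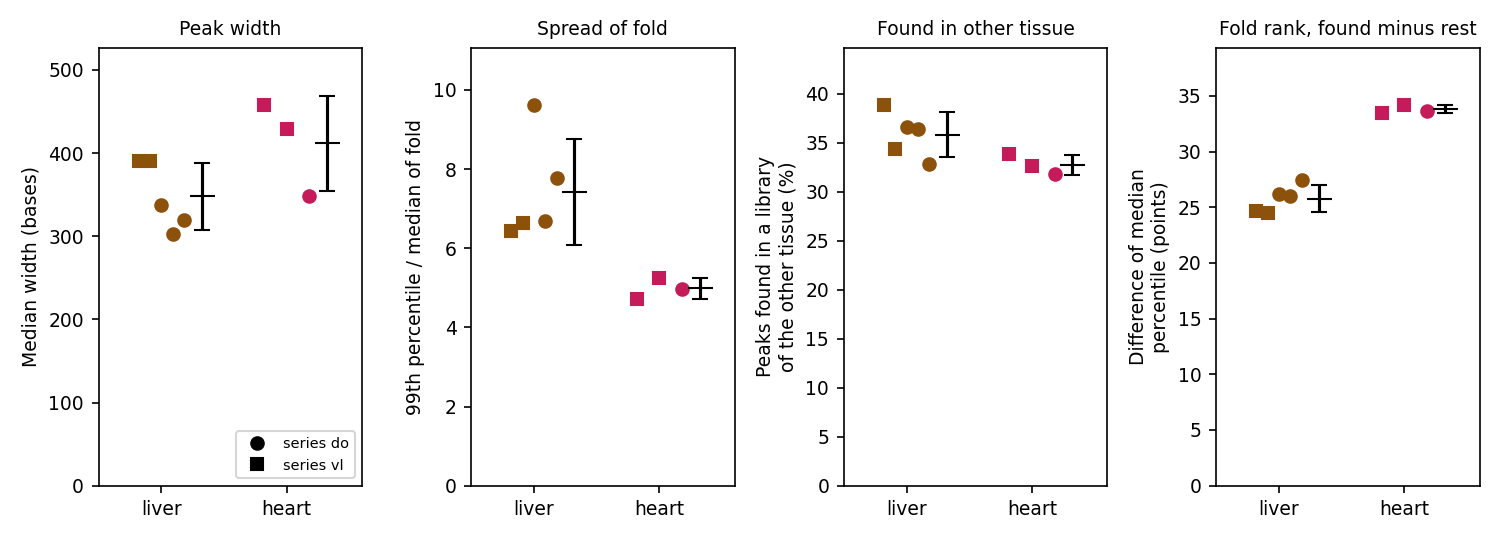
Median peak width in bases, ratio of the 99th percentile of fold to the median, share of peaks found in single libraries of the other tissue in percent, and difference of median fold percentile between peaks found in the other tissue and the rest. Each point is 1 library (circles do, squares vl) and the bars give mean ± SD over 5 livers and 3 hearts; the tissues overlap in width and in the share found and do not overlap in the other 2 measures.

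Part of each list was met again in the other tissue. A liver peak was found in a single heart library in 38.8% (NMR30), 34.4% (NMR31), 36.6% (NMR32), 36.4% (NMR34) and 32.8% (NMR35) of cases on average, and a heart peak in a single liver library in 33.8% (NMR31), 32.6% (NMR32) and 31.8% (NMR35). The means were 35.8% ± 2.29 (SD, n = 5) and 32.7% ± 1.01 (SD, n = 3), against 62.1% ± 7.70 and 61.0% ± 2.00 in single libraries of the same tissue. The tissues differed by 3.06 percentage points (exact permutation p = 0.0714), and by 3.46 and 3.39 points within the do and the vl libraries (exact permutation p = 0.0417). With the 87316 best peaks of every list the difference was 3.59 points (exact permutation p = 0.0179), and without the liver of NMR30, NMR34 or NMR35 it was 1.58, 2.06 and 4.89 points, and without the heart of NMR35 1.92 points. In the pairing by animal the liver was higher in 3 of 3 animals, by 1.85 points on average (exact permutation p = 0.25, the smallest possible). With the libraries of those 3 animals alone on both sides it was -0.237 points (exact permutation p = 0.90).

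The peaks met again in the other tissue were the wider and the stronger ones. In the livers their median width was 503, 516, 504, 437 and 499 bases, in the order above, against 338, 343, 282, 255 and 271 bases for the rest of the same list. In the hearts it was 674, 660 and 575 bases against 381, 358 and 285 bases. All 8 libraries showed this direction, with a mean log2 ratio of 0.80 (exact sign-flip permutation test over 8 libraries, p = 0.00781, the smallest possible; adjusted p = 0.0156). In the pairing by animal the log2 ratio was 0.84 and p = 0.25, the smallest that 3 animals allow with an exact permutation. A wider peak has more bases that can meet a stretch of the other tissue, and the share of the width difference that this gives was not tested. The liver minus heart difference of the log2 ratio was -0.17 (exact permutation p = 0.161, adjusted p = 0.161), a difference that passed with peaks of at least 300 bases (-0.25, exact permutation adjusted p = 0.0179) and within the prefixes (-0.23, exact permutation p = 0.0417). Without the heart of NMR31, NMR32 or NMR35 it was -0.11, -0.081 and -0.012, nearest to 0 without that of NMR35, and without 1 liver it was -0.15 to -0.25. Leaving out a heart also changed the liver values, as a liver peak then had to meet a stretch covered in both hearts left.

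By fold, the median percentile of the peaks met again exceeded that of the rest by 24.7, 24.5, 26.2, 26.0 and 27.5 points in the livers, and by 33.5, 34.2 and 33.7 points in the hearts. Every library showed the direction (mean 28.8 points, exact sign-flip permutation p = 0.00781, adjusted p = 0.0156; in the pairing by animal 29.9 points and p = 0.25, the smallest possible). Wider peaks had higher folds within a list (Spearman correlation 0.67 to 0.79 over the 8 lists), so the limit given above for width also holds for fold. Its part was not tested. In the percentile difference, all 3 hearts lay above all 5 livers. The means were 25.8 ± 1.22 points (SD, n = 5) and 33.8 ± 0.366 points (SD, n = 3), and the difference of -8.02 points passed the exact permutation test (p = 0.0179, the smallest possible; adjusted p = 0.0238). It was -7.13 points within the do libraries and -9.25 points within the vl libraries (exact permutation p = 0.0417). It was -4.84, -5.08 and -5.33 points without the heart of NMR31, NMR32 or NMR35, each with the smallest p that the exact permutation of 5 against 2 libraries gives (p = 0.0476, adjusted p = 0.0635 beside the other 3 tests). In designs too small for the exact permutation test to pass, it was -7.72 points in the pairing by animal (p = 0.25) and -8.87 points with 3 livers and 3 hearts of the same animals (p = 0.10). Every liver was scored against 1 heart consensus and every heart against 1 liver consensus, each of stretches covered in at least 2 libraries. The permutation, here and for the log2 ratio above, kept both sets. Its p therefore does not tell a difference between the tissues from one between these sets. Without 1 heart, the heart consensus held only stretches covered in both hearts left, so the liver values changed too.

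The shares found in the consensus of the other tissue parted at the strongest peaks. In the lowest 10% of a list by fold, 19.4% to 24.9% of liver peaks were found in the heart consensus and 18.3% to 20.9% of heart peaks in the liver consensus. In the highest 10%, the share was 75.7% (NMR30), 65.3% (NMR31), 73.8% (NMR32), 72.5% (NMR34) and 72.4% (NMR35) of liver peaks, and 82.5% (NMR31), 85.5% (NMR32) and 84.8% (NMR35) of heart peaks. In every library, strong liver peaks missed the heart consensus more often than strong heart peaks missed the liver consensus. Of the 1000 peaks with the highest fold, 77.7% to 85.9% of liver peaks were found in the heart consensus. For heart peaks, 93.3% to 96.2% were found in the liver consensus. These bins describe the same peaks as the tested difference above and were not tested separately. The consensus of the livers rests on 5 libraries (104456 stretches, 69.0 Mb) and that of the hearts on 3 (89644 stretches, 62.2 Mb).

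**Figure D3:**
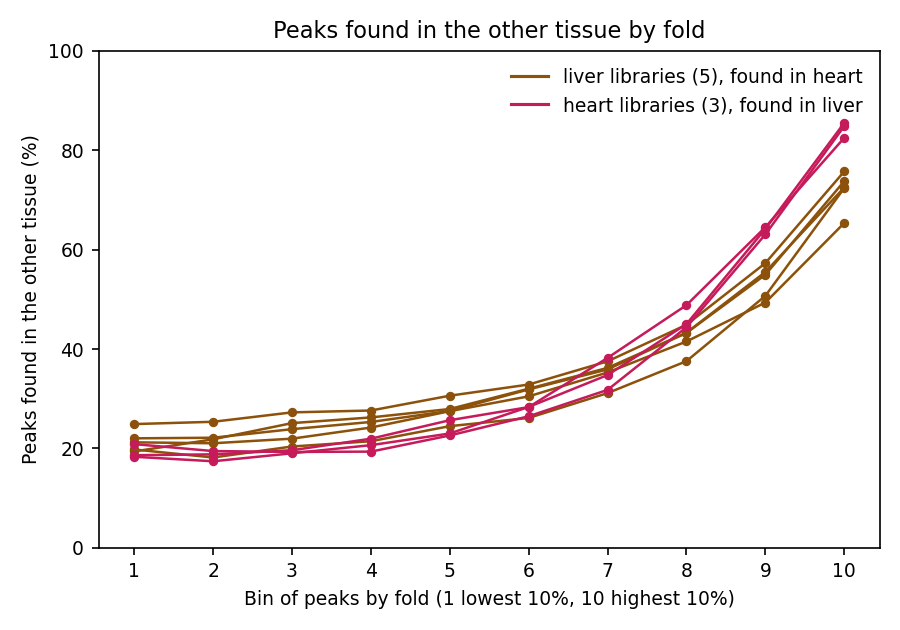
Percentage of peaks that met the consensus of the other tissue (vertical axis) in 10 equal bins of each list by fold (horizontal axis, lowest to highest), with 1 line per library. Up to bin 7 no line exceeds 38.2%, and in the highest bin the 3 hearts lie at 82.5% to 85.5% and the 5 livers at 65.3% to 75.7%.

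The strongest liver-only regions illustrate this end of the lists. They were named by a fixed rule, the highest mean percentile of fold among regions with a peak in all 5 livers and no heart, so their folds are a description. The first, JH173407.1:3328742-3333720 (4979 bases), had folds of 76.6 (NMR30), 56.3 (NMR31), 96.5 (NMR32), 77.1 (NMR34) and 70.5 (NMR35), a mean percentile of 99.9. It had a liver H3K4me3 peak in 5 of 5 libraries and a heart H3K4me3 peak in 0 of 4, with H3K4me1 in 4 of 5 livers and 0 of 3 hearts, and peaks in 5 of the 8 liver factor libraries. The second, JH165996.1:382268-385035 (2768 bases), had folds of 73.5, 78.2, 138, 72.9 and 58.9 in the same order, the liver of NMR32 standing above the other 4. The others were JH170442.1:1021897-1024495, JH167272.1:3092902-3097357 and JH169543.1:1519478-1524190, with mean folds of 88.7 ± 36.1, 75.1 ± 20.9 and 75.4 ± 19.9 (SD, n = 5). All 5 regions carried H3K4me3 in every liver and in no heart library, and H3K4me1 in no heart library. Peaks in 4 to 8 of the 8 factor libraries lay on them, and JH169543.1:1519478-1524190 had all 8.

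The strongest heart-only regions were more mixed in their marks. Their mean percentiles of fold within the heart lists were 99.31 to 99.93, and those of the liver-only regions within the liver lists 99.89 to 99.92. JH203289.1:1-1516, which begins at the first base of its scaffold, had folds of 50.1 (NMR31), 53.5 (NMR32) and 38.7 (NMR35). It had H3K4me1 in 3 of 3 hearts, H3K4me3 in no library of either tissue, and peaks in 5 of the 8 liver factor libraries, so a region without liver H3K27ac carried liver factor peaks. The second, JH173165.1:158041-166641 (8601 bases), had folds of 37.2, 30.3 and 33.3 in the same order, with H3K4me3 in 4 of 4 heart libraries and 1 of 5 liver libraries. Its H3K4me1 was called in 4 of 5 livers and in 0 of 3 hearts, and 2 of the 8 liver factor libraries had a peak on it. JH169332.1:478320-481834 had a mean fold of 30.9 ± 4.22 (SD, n = 3) and H3K4me3 in 4 of 4 heart libraries and in 1 of 5 liver libraries. JH174047.1:370668-372717, at 29.8 ± 4.16, had H3K4me3 in 4 of 4 hearts and no liver. JH167488.1:2237369-2238750, at 34.2 ± 9.89, had H3K4me1 in 2 of 3 hearts and H3K4me3 nowhere. Of these 5 regions 3 thus had the promoter mark in every heart library, where all 5 of the liver regions had it in every liver library.

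Regions of 1 tissue lay next to each other along the scaffolds. Of the liver-only regions followed by another region within 10000 bases, 78.9% were followed by a liver-only region, against 37.7% of all such regions. Heart-only regions were followed by a heart-only region in 72.0% of cases, against 29.8% of all. Uninterrupted runs of at least 5 regions held 60.02% of the liver-only regions (3612 runs) and 49.5% of the heart-only regions (2434 runs). The longest liver-only run was 95 regions over JH172843.1:65061-724312, with 63255 bases covered and 34 of its regions in every liver. The longest heart-only run was 59 regions over JH165989.1:148749-345367, with 46658 bases covered and 29 regions in every heart. Stretches parted by a gap counted as separate regions, however short the gap, so 1 broken domain can give several neighbours of the same class. These shares and runs are a description and were not tested.

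Whole scaffolds leaned to 1 tissue. Over all scaffolds there were 1.28 liver-only regions for each heart-only region. Among the 173 scaffolds with at least 200 regions the median was 1.23, and the ratio ran from 0.219 to 7.04. JH172953.1 had 183 liver-only and 26 heart-only regions, and JH168604.1 had 152 and 38. At the other end, JH169933.1 had 37 liver-only and 169 heart-only regions, and JH167154.1 had 35 and 140.

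At the 18811 regions found in all 8 libraries, the tissues were compared by the rank of fold, ranked over the same regions in each library (the highest fold of the peaks in the region; limma on normal scores, Benjamini-Hochberg over all 18811). The rank was higher in liver at 1977 regions (10.5% of those tested) and higher in heart at 1903 (10.1%). Ranks within a library have a fixed sum, so a shift of all regions towards 1 tissue cannot show in them. With regions in at least 2 libraries of each tissue, 2371 of 33061 ranked higher in liver and 2950 in heart. The median of the mean percentiles of the liver-higher regions was 73.5 in liver and 21.1 in heart, and that of the heart-higher regions 20.8 in liver and 71.4 in heart. Without overlap between the 5 livers and the 3 hearts were 1667 of the liver-higher and 1682 of the heart-higher regions, where 4642 regions (24.7%) had no overlap in all. With animal as a term in the fit, 1348 regions were higher in liver and 1281 in heart. With the 3 livers and 3 hearts of the same animals, 1304 and 1217 of 21509 regions were called, and with peaks of at least 300 bases 1280 and 1217 of 13625. Spearman correlations of the ranks over the 18811 regions, given as a description, were 0.70 to 0.79 between livers, 0.64 to 0.71 between hearts and 0.38 to 0.46 across tissues. Points of 1 correlation share their 2 libraries and are not independent.

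**Figure D4:**
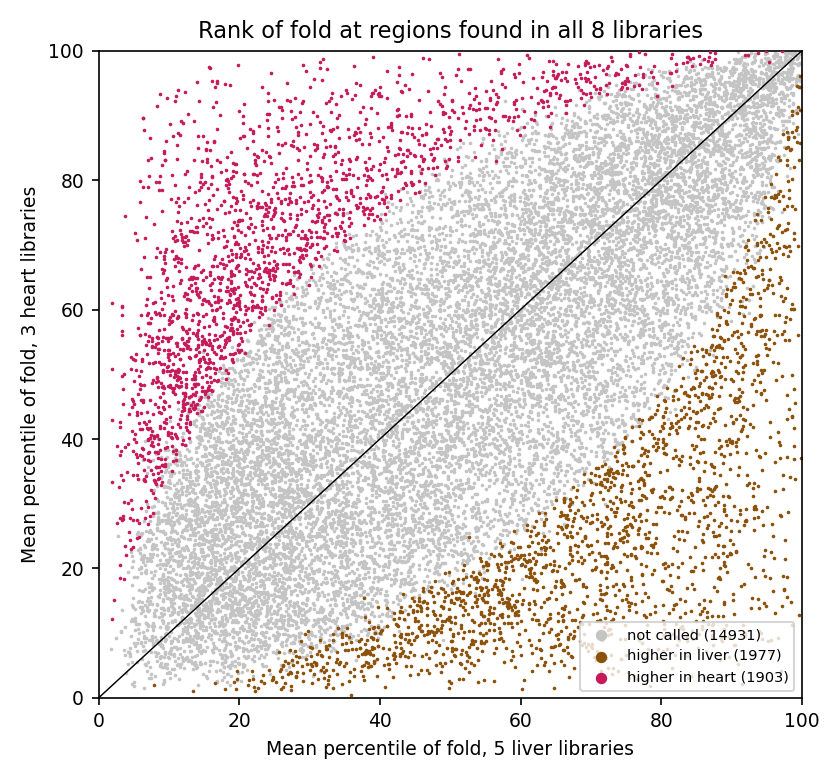
Mean percentile of fold in the 5 livers (horizontal axis) and in the 3 hearts (vertical axis) at each of the 18811 regions found in all 8 libraries, with the line of equal ranks. The 1977 regions higher in liver and the 1903 higher in heart (limma, adjusted p under 0.05) lie below and above the line, and 14931 were not called.

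The largest rank differences joined the top of 1 tissue's lists with a low rank among the shared regions in the other; within the whole list of that other tissue, the mean percentile of the 10 regions named was 13.4 to 47.1. JH172627.1:3770069-3773085 had folds of 45.8 (NMR30), 41.1 (NMR31), 69.2 (NMR32), 41.9 (NMR34) and 55.7 (NMR35) in the livers and 4.43 (NMR31), 4.25 (NMR32) and 4.67 (NMR35) in the hearts. Peaks covered 2723 to 2904 of its 3017 bases in the livers and 192 to 517 bases in the hearts. Its percentile among the shared regions was 97.1 ± 0.40 (SD, n = 5) in liver and 4.15 ± 1.08 (SD, n = 3) in heart (limma score difference 3.64 ± 0.31 SE, adjusted p = 1.84e-06). It carried H3K4me3 in 5 of 5 livers and in 1 of 4 hearts, and H3K4me1 in 3 of 3 hearts. The second, JH168489.1:343916-351447, had folds of 42.8, 22.5, 44.9, 42.4 and 42.1 in the livers, that of NMR31 being the low one, and 4.19, 3.21 and 4.00 in the hearts (percentile difference 89.4 points, limma adjusted p = 5.40e-06). JH172334.1:2142078-2144142, JH171387.1:431231-440780 and JH173492.1:801775-805492 followed with differences of 88.3, 87.4 and 87.4 points. All 5 carried H3K4me3 in 5 of 5 livers and peaks in 5 to 8 of the 8 factor libraries. JH171387.1:431231-440780 joins stretches that came apart with equal numbers of peaks, in the 3 animals with both tissues, and without the liver of NMR30 or NMR31. Its largest piece found in all libraries then held 1291 to 1318 of its 9550 bases, with a percentile difference of 9.03 to 18.6 points, so its rank difference rests on where the region ends.

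In the other direction, JH168377.1:470652-481567 had folds of 29.96 (NMR31), 21.5 (NMR32) and 27.7 (NMR35) in the hearts and 5.94 (NMR30), 2.91 (NMR31), 6.998 (NMR32), 5.47 (NMR34) and 6.85 (NMR35) in the livers. Peaks covered 10913 to 10916 of its 10916 bases in the hearts and 249 to 2731 bases in the livers. Its percentile was 93.3 ± 5.50 (SD, n = 3) in heart and 8.75 ± 4.96 (SD, n = 5) in liver (limma score difference -3.15 ± 0.39 SE, adjusted p = 2.91e-05). It carried H3K4me3 in 4 of 4 hearts and also in 5 of 5 livers, so the promoter mark was called in both tissues while the acetylated span was wide in heart alone. JH173076.1:36433-41700, JH170644.1:684362-687634, JH170753.1:695210-697489 and JH167588.1:1558798-1564521 followed, with percentile differences of -83.4, -83.2, -83.2 and -83.0 points. JH173076.1:36433-41700 and JH170644.1:684362-687634 had H3K4me3 in no library and H3K4me1 in 3 of 3 hearts. H3K4me1 was also called in liver, in 5 of 5 libraries at the first and in 3 of 5 at the second. JH170753.1:695210-697489 and JH167588.1:1558798-1564521 had H3K4me3 in every library of both tissues.

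Width changed together with rank at the shared regions. Bases covered by a library's peaks within the region (log2, centred on each library's median) were higher in liver at 2978 regions (15.8% of those tested) and in heart at 2724 (14.5%) in limma, with a median ratio of 2.07 and 2.18 between the tissues. With animal as a term, 1862 regions were wider in liver and 1928 in heart, and without the heart of NMR31 or NMR32 1617 or 1692 were wider in heart. Of the 1977 regions ranked higher in liver, 71.3% were also wider in liver and 7 were wider in heart. Of the 1903 ranked higher in heart, 67.0% were wider in heart and 4 were wider in liver. Both measures come from the same peaks, and within a list wider peaks had higher folds (Spearman correlation over peaks 0.67 to 0.79 in the 8 lists, as a description). Uncalled regions were covered over a median of 851 bases in liver and 927 in heart. The liver-higher regions were covered over 1591 and 713 bases, and the heart-higher regions over 694 and 1878.

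The widest region of all was acetylated in both tissues. JH168785.1:698605-737737 spanned 39133 bases and was covered over 36774 ± 1113 bases in the livers (SD, n = 5) and 36852 ± 1250 in the hearts (SD, n = 3), with folds of 31.7 to 68.8 and 44.7 to 51.7. Its width did not pass the test of a difference between tissues (limma log2 difference 0.095, adjusted p = 0.548). The widest liver-only region, JH166317.1:660385-672473, was covered over 10623 ± 914 bases and had peaks in 7 of the 8 factor libraries and H3K4me3 in 5 of 5 livers and 0 of 4 hearts. The widest heart-only region, JH170748.1:901435-918655, was covered over 16849 ± 273 bases, with H3K4me3 in 3 of 4 hearts and 1 of 5 livers. It had no liver H3K27ac peak, and 6 of the 8 liver factor libraries had a peak within its 17221 bases. A wider region has more bases that can hold a factor peak, and the part of this width was not tested.

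The other marks, measured with other antibodies, were then counted on the H3K27ac classes. Liver H3K4me3 lay on 49.4% to 55.0% of the regions of both tissues over 5 libraries (median 53.0%), on 6.93% to 9.88% of liver-only regions (median 8.15%) and on 1.13% to 5.95% of heart-only regions (median 1.69%). Heart H3K4me3 lay on 32.3% to 54.6% of the regions of both tissues over 4 libraries, on 1.84% to 6.36% of heart-only and on 0.950% to 2.53% of liver-only regions. The promoter mark was thus more frequent on the shared regions in every library of both tissues. The difference between regions of both tissues and of 1 tissue was 43.8 percentage points in liver (higher in 5 of 5 libraries, exact sign-flip permutation p = 0.0625) and 43.0 points in heart (4 of 4, exact permutation p = 0.125), each the smallest p that the number of libraries allows.

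The enhancer mark had another distribution. Liver H3K4me1 lay on 58.2% to 70.9% of liver-only regions (median 66.3%), 50.9% to 64.1% of regions of both tissues (median 59.3%) and 7.43% to 11.5% of heart-only regions. The difference between regions of both tissues and liver-only regions was -7.28 points (lower in 5 of 5 libraries, exact permutation p = 0.0625, the smallest possible). Heart H3K4me1 lay on 26.4%, 35.01% and 49.5% of the regions of both tissues and on 14.0%, 22.2% and 35.6% of heart-only regions, a difference of 13.1 points (3 of 3 libraries, exact permutation p = 0.25, the smallest possible). Width moved with these shares. Among regions of 500 to 1000 bases, the difference was -31.5 points for liver H3K4me1 and turned to -3.98 points for heart H3K4me1. For H3K4me3 in the same band, 52.6% of regions of both tissues and 8.92% of liver-only regions had liver H3K4me3, while 47.6% of regions of both tissues and 5.27% of heart-only regions had heart H3K4me3.

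**Figure D5:**
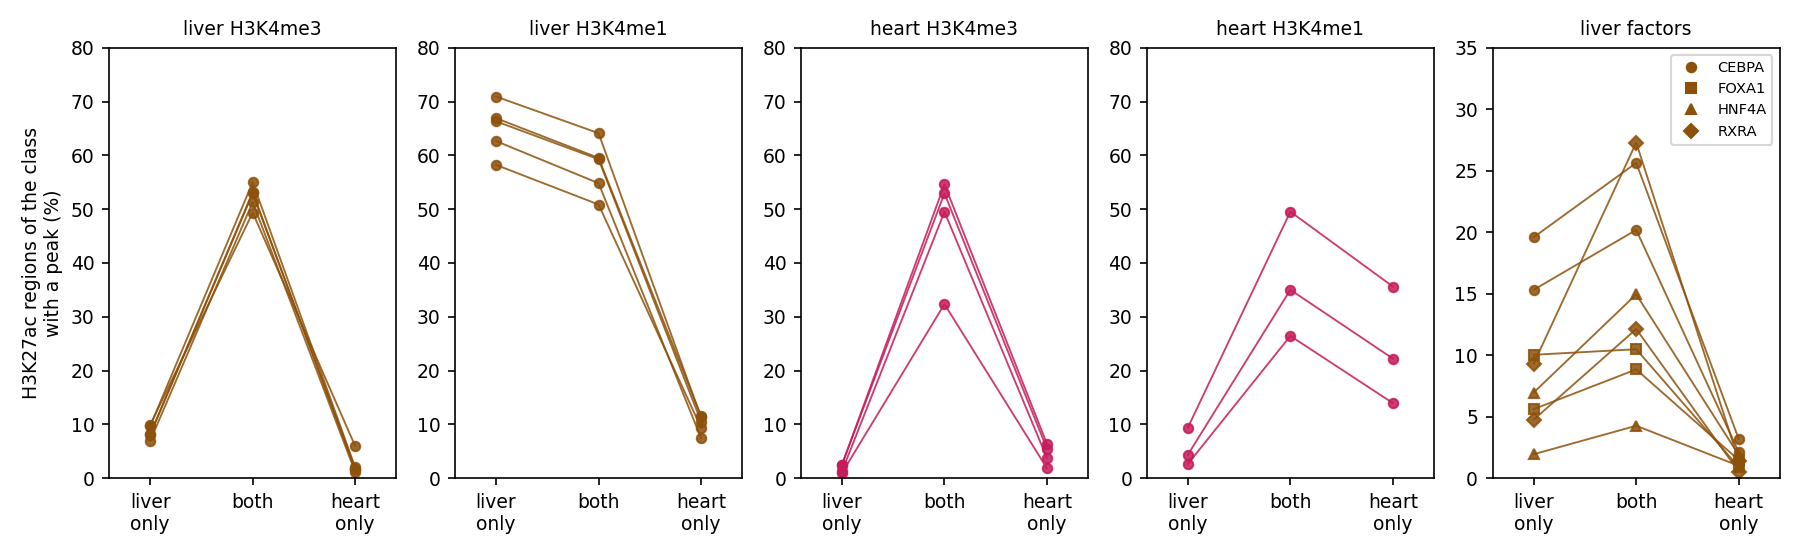
Share of H3K27ac regions (vertical axes, percent) found only in liver, in both tissues and only in heart that had a peak of liver or heart H3K4me3, of liver or heart H3K4me1, or of a liver factor, with 1 line per library; the last panel has a shorter axis. H3K4me3 peaks at the regions of both tissues (32.3% to 55.0%), liver H3K4me1 is highest at liver-only regions, and the liver factors are lowest at heart-only regions.

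Of the liver factors, CEBPA, a leucine zipper factor of hepatocytes, had a peak at 19.6% (NMR30) and 15.3% (NMR35) of liver-only regions and at 3.18% and 2.12% of heart-only regions. FOXA1, a factor that can bind closed chromatin, lay on 5.61% and 10.0% of liver-only and 1.47% and 0.892% of heart-only regions, in the same order of animals. HNF4A, a nuclear receptor central to hepatocyte identity, lay on 1.95% and 6.96%, and 1.00% and 1.88%. RXRA, the partner of many nuclear receptors, lay on 4.76% and 9.32%, and 0.531% and 1.44%. The 8 libraries come from only 2 animals, NMR30 and NMR35, and were scored on the same regions. The sign-flip tests below take libraries as units, so they do not measure the spread between animals. Liver-only regions exceeded heart-only ones by 7.63 points (8 of 8 libraries, exact sign-flip permutation p = 0.00781), by 8.51 points among regions of 500 to 1000 bases, by 14.8 points with 1 base of overlap and by 15.7 points with classes from all libraries of a tissue. Regions of both tissues exceeded liver-only regions by 6.28 points (8 of 8, exact permutation p = 0.00781). The call was lost with 1 base of overlap (1.62 points, exact permutation p = 0.570) and with classes from all libraries (3.84 points, exact permutation p = 0.141). The order turned to -2.40 points among regions of 500 to 1000 bases (exact permutation p = 0.141), where CEBPA lay on 19.6% ± 3.91 of liver-only and 12.4% ± 2.78 of shared regions (SD, n = 2).

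The factors also followed the rank of fold at the regions found in all 8 libraries. CEBPA lay on 53.5% ± 4.40 of the regions ranked higher in liver, 29.4% ± 5.13 of those not called and 23.5% ± 5.28 of those ranked higher in heart (SD, n = 2). The corresponding shares were 30.9%, 11.3% and 9.70% for FOXA1, 27.7%, 12.4% and 9.41% for HNF4A and 46.0%, 27.7% and 20.6% for RXRA. All 8 libraries had the highest share at the liver-higher regions. The width of these regions in liver, given above, moved with the shares, and its part was not tested. H3K4me3 had another pattern: in liver it lay on 70.2% ± 1.65 of liver-higher, 74.6% ± 2.27 of uncalled and 50.1% ± 1.91 of heart-higher regions (SD, n = 5), and in heart on 50.8% ± 11.7, 68.7% ± 10.7 and 50.99% ± 9.95 (SD, n = 4). Liver H3K4me1 lay on 78.4% ± 2.88 of the liver-higher, 59.6% ± 5.17 of the uncalled and 70.4% ± 5.63 of the heart-higher regions (SD, n = 5). Heart H3K4me1 lay on 60.01% ± 10.48 of the heart-higher regions, 35.3% ± 10.7 of the uncalled and 45.8% ± 13.3 of the liver-higher regions (SD, n = 3). These shares are descriptions and were not tested.

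In the other species of the series, the liver minus heart difference of median width was tested against that of the naked mole-rat by exact permutation of species labels within each tissue. All these animals were wild-type adults and all but 1 were male. The Damaraland mole-rats (5 livers, 1 of them of a female, and 5 hearts) had estimated ages of 36 to 48 months, the guinea pigs (3 and 3) were 2.3 months old and the C57BL/6J mice (4 livers and 6 hearts, 1 heart library pooled from 3 animals) 2 months, so species and age cannot be told apart. The naked mole-rat difference of -63.9 bases minus that of the Damaraland mole-rat was -84.3 bases (adjusted p = 0.219, exact permutation), minus that of the guinea pig -193 bases (adjusted p = 0.169) and minus that of the mouse -177 bases (adjusted p = 0.219). None passed. Median width was 303 to 390 bases in the naked mole-rat livers and 391 to 540 in those of the Damaraland mole-rat. It was 576 to 601 bases in the guinea pig livers and 578 to 636 in the mouse livers. Permuting labels across such species widens the spread of the permuted values. The test therefore cannot decide whether the liver minus heart difference of width is alike between species. The tests of the share used the same permutation and have the same limit. The difference in the share of peaks found in the other tissue was 11.2 points higher than in the guinea pig, the closest to the threshold (exact permutation p = 0.0152, adjusted p = 0.0911). This passed without the liver of NMR35 (13.0 points, exact permutation adjusted p = 0.0257). It also passed with peaks of at least 300 bases, a setting chosen after seeing the data (21.7 points, exact permutation adjusted p = 0.0107). It did not pass without any other single library (exact permutation adjusted p = 0.0929 to 0.154). Nor did it with a −log10 q of at least 4 (10.6 points, adjusted p = 0.145) or the 3 animals with both tissues (7.87 points, adjusted p = 0.24). Against the Damaraland mole-rat and the mouse the difference in the share was 2.19 and -2.94 points (exact permutation, adjusted p = 0.653 for both).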

How the data were processed

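The authors called peaks with MACS2, per the submitters' processing notes, giving 1 deposited list per library against 1 input, on HetGla_1.0 per the peak names in the files; the version, the settings and the aligner are not stated in the sources used here. The deposited columns used were the peak's start and end, its fold (a linear ratio over background, from the authors) and the −log10 of its p and q values (deposited), used only to order or filter peaks. Depth is unknown, so no counting interval is given. The members, classes and lists were chosen with earlier results of these data known. Each library is 1 replicate; library measures were compared by exact permutation tests (NumPy 2.4.6, SciPy 1.17.1) and regions by limma 3.58.1 (R 4.3.3) with Benjamini-Hochberg adjustment at 0.05; the programs were tested on simulated data. Consensus stretches had at least 100 bases. The labels name the animals, so NMR31, NMR32 and NMR35 pair the tissues; their same-animal overlap was 0.212 against 0.202. Regions named were the 5 highest by mean percentile of fold in every library of 1 tissue and no other, the 5 with the largest percentile difference each way among those called, the widest of each class, and 2 scaffolds at each end of the liver-only to heart-only ratio. Alternatives were a −log10 q of at least 4, equal numbers of peaks, 1 base of overlap, scaffolds reaching 1 Mb, each library left out, animal and prefix as terms, other classes and, chosen after seeing the data, peaks of at least 300 bases, regions of 500 to 1000 bases and the 3 animals with both tissues. Genes and sequences were not analysed here.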

Additional observations from a re-analysis of the deposited data

Results flagged for a closer look

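The gap in fold percentile between peaks found in the other tissue and the rest was smaller in the livers than in the hearts (liver minus heart -8.02 points; exact permutation over 5 and 3 libraries, adjusted p = 0.0238), a tissue difference that passed its own test. Without 1 heart the difference was -5.33 to -4.84 points, with the smallest p that 5 against 2 libraries can give (exact permutation p = 0.0476, adjusted p = 0.0635). The permutation kept the consensus sets fixed, and without 1 heart the heart consensus held only stretches covered in both hearts left.

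In 42 groups of 4 to 10 libraries, 3 libraries stood apart from the others of their group, and chance alone gives about 1 in 20 such groups. The liver H3K4me3 library of NMR30 had a peak at 5.95% of the heart-only regions against 1.13% to 2.00% in the other 4 livers; its list held 253457 peaks, against 27591 to 48726 in theirs. At JH165996.1:382268-385035, the second strongest liver-only region, the fold in the liver of NMR32 was 138 against 58.9 to 78.2. At JH168489.1:343916-351447, the second shared region ranked higher in liver, the fold in the liver of NMR31 was 22.5 against 42.1 to 44.9.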

How the results depend on the processing

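Of 448 alternative values of the library-level and region-level results, 408 kept their direction and side of the threshold (counts within 1.5 times); the cause of the others was not tested except where fewer libraries or regions entered. The tissue difference in the share of peaks found in the other tissue was 3.59 points with equal numbers of peaks, 3.93 on scaffolds reaching 1 Mb, 7.50 with peaks of at least 300 bases and 3.42 within prefixes, all now past the threshold, and -0.237 with 3 libraries of each tissue. That alternative, where fewer libraries limit the p, gave 0.072 for the share of bases in the widest 10% of peaks (now higher in liver), 0.86 and 30.5 for the width ratio and percentile gap of peaks found, -8.87 for the gap's tissue difference, and -1.10 for the share against the Damaraland mole-rat. In the pairing by animal (replicate block, 3 animals) the first 4 of these measures were 0.072, 0.84, 29.9 and -7.72, and the regions wider in liver numbered 1862; the pairing, where 3 animals cannot pass a test, changed no other call. Within the do and vl prefixes, of 4 libraries each, the width ratio was 0.88 and 0.72 and the gap 28.3 and 29.2; over both prefixes the tissue difference of the width ratio was -0.23. With peaks of at least 300 bases it was -0.25, the share against the guinea pig 21.7 and against the mouse 6.14 (reversed). Shared minus liver-only factor binding was 1.62 points with 1 base of overlap, 3.84 with classes from all libraries and -2.40 at 500 to 1000 bases, where heart H3K4me1 gave -3.98. Regions ranked higher in liver and heart numbered 1304 and 1217 with 3 libraries of each tissue and 1280 and 1217 with peaks of at least 300 bases; with regions in at least 2 libraries of each tissue, 2371 ranked higher in liver, 2950 ranked higher in heart, 4590 were wider in liver and 5686 wider in heart. Leaving out 1 library gave -9.78 to -4.84 for the gap's tissue difference (without a heart, p was at the smallest possible), 9.69 to 13.0 for the share against the guinea pig and 1617 to 2922 regions wider in heart. Of 284 values of named regions recovered unbroken, 281 held, and the other 3 moved with peaks of at least 300 bases. Settings in which a named region came apart or was not recovered are not among the 284. A shared liver-higher region came apart with equal numbers of peaks, with 3 libraries of each tissue and without the liver of NMR30 or NMR31. Its largest piece had a percentile difference of 9.03 to 18.6 points, against 87.4 for the whole region. A heart-higher region that came apart without the heart of NMR31 or NMR35 kept -81.6 and -83.9 points. Read depth, which sets how many weak peaks a list holds, is unknown here.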
